A study of Mus musculus with 12 samples.

Results

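Homologous recombination repairs DNA double-strand breaks by copying the sister chromatid, and the Fanconi pathway removes crosslinks between the strands with the help of the same proteins. The 9 genes described here are Brca1, Brca2, Bard1, Palb2, Rad54l, Fancd2, Fanci, Fanca and Brip1. They were chosen by name, with earlier results of these data known. Each matched 1 of the 35453 rows of the mRNA table, and all 9 stood among the 14098 genes tested. The libraries came from tumours that 4T1 cells, a metastatic mammary carcinoma line of the mouse, formed in Balb/c mice, and the tumours were removed 35 days after inoculation. In the stress group the mice were restrained for 2 hours a day over 28 days in a row. In the control group they were left untreated. There were 3 mRNA libraries in each group, and whether the tumours of a group came from different mice is not labelled, so the p-values measure the spread between these libraries.

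As background, Brca1 and Bard1 form a ubiquitin ligase that helps to prepare broken ends. Palb2 links Brca1 to Brca2, which prepares the single-stranded DNA for pairing with the template, and the translocase Rad54l helps that DNA to invade it. Brip1 is a helicase that binds Brca1. Fanca belongs to the nuclear core complex that attaches ubiquitin to Fancd2 and Fanci, a pair of related proteins that clamp onto DNA at a crosslink. Many of these genes are transcribed mostly in dividing cells, in S and G2 phase, and inherited loss of human BRCA1, BRCA2 or PALB2 raises the risk of breast cancer.

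The promoters of the members are shown first because their levels are read together below. RefSeq promoter windows on GRCm38.p6 (250 bases before the start site and 50 after it) were found for 8 of the 9 members, all except Fancd2. The windows were searched on both strands for 3 motifs of cell cycle promoters. These were the E2F word (TTTCCCGC, TTTCGCGC, TTTGCCGC or TTTGGCGC), the cell cycle homology region or CHR (TTTGAA or TTCGAA) and the CCAAT box bound by NF-Y (CCAAT). The words of these 3 motifs do not contain each other. The stretches below are printed 5′ to 3′ on the strand of the gene, with matches in capitals, and were limited to upstream bases that no GENCODE M21 exon covers. They lie at chr11:101551956-101552148 (minus strand) for Brca1, chr1:71103147-71103222 (minus) for Bard1, chr5:150522371-150522620 (plus) for Brca2, chr11:86201194-86201369 (minus) for Brip1 and chr8:123318577-123318826 (minus) for Fanca. Brca1, Bard1, Brip1 and Fanca were chosen as members whose stress and control libraries did not overlap, and Brca2 as the other member with an E2F word.
Brca1: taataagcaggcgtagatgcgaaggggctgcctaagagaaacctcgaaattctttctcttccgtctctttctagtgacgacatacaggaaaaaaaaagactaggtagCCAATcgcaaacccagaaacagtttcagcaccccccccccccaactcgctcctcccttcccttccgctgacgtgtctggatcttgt
Bard1: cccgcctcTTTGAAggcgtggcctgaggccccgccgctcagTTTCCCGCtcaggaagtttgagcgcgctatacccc
Brca2: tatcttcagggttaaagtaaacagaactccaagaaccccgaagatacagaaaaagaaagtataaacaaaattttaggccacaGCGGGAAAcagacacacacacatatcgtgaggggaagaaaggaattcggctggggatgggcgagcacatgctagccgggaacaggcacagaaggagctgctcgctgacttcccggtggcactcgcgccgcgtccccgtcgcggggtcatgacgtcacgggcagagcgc
Brip1: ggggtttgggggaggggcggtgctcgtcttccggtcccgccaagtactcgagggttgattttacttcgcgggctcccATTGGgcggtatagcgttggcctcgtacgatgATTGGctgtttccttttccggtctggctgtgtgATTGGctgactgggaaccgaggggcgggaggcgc
Fanca: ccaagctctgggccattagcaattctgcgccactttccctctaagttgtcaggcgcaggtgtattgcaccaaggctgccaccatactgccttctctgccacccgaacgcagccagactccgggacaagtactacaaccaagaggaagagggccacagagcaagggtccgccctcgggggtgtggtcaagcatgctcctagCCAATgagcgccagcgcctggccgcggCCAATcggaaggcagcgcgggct
In these letters, Bard1 holds a CHR word from 242 to 237 bases before its RefSeq start site. It also holds an E2F word from 209 to 202 bases before that site. The GENCODE gene of Bard1 starts further upstream, at 71103146 directly after the printed stretch, so both words lie closer to that start. Brca2 holds an E2F word on the opposite strand, and Brip1 holds 3 CCAAT boxes, all on the opposite strand. Fanca holds 2 CCAAT boxes and Brca1 holds 1. E2F words were found in 2 of the 8 member windows, against 3.9% of the 10598 windows of tested genes. A CHR word was found in 1 of 8, against 14.2%, and a CCAAT box in 5 of 8, namely Brca1, Rad54l, Palb2, Fanca and Brip1, against 38.8%. A match is a description of letters only.

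The authors deposited normalized log2 values, of unknown depth and with the log base taken to be 2. Differences are stress minus control on that scale. None of the 9 genes passed the threshold, an adjusted p under 0.05 in limma's test over all 14098 genes, where 0.0355% of genes passed. At an unadjusted p under 0.05 there were 5 members, all lower in stress (Brca1, Bard1, Brip1, Fancd2 and Fanca), where 17.4% of all genes stood in either direction and 9.15% were lower. For the same 5 members all stress libraries lay below all control libraries, which held for 12.3% of all genes. Of the 9 members 8 had a difference below 0, against 49.4% of all genes, and the median difference was -0.20, against 0.0014 over all genes. The members were chosen with earlier results of these data known, so these counts and the median describe the list and do not test it. In this table the 6 libraries lie close together for weakly expressed genes (median range 0.0773 for mean values from 2 to 3). For mean values from 7 to 10, where the members lie, the median range was 0.262 to 0.299. The sources used here do not say whether the transform pulled values towards each other; a transform of that kind would make the differences, and the percentages computed from them, smaller than those of the read numbers. In a bulk tumour, fewer cells of a type and less RNA per cell cannot be told apart.

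**Figure D1:**
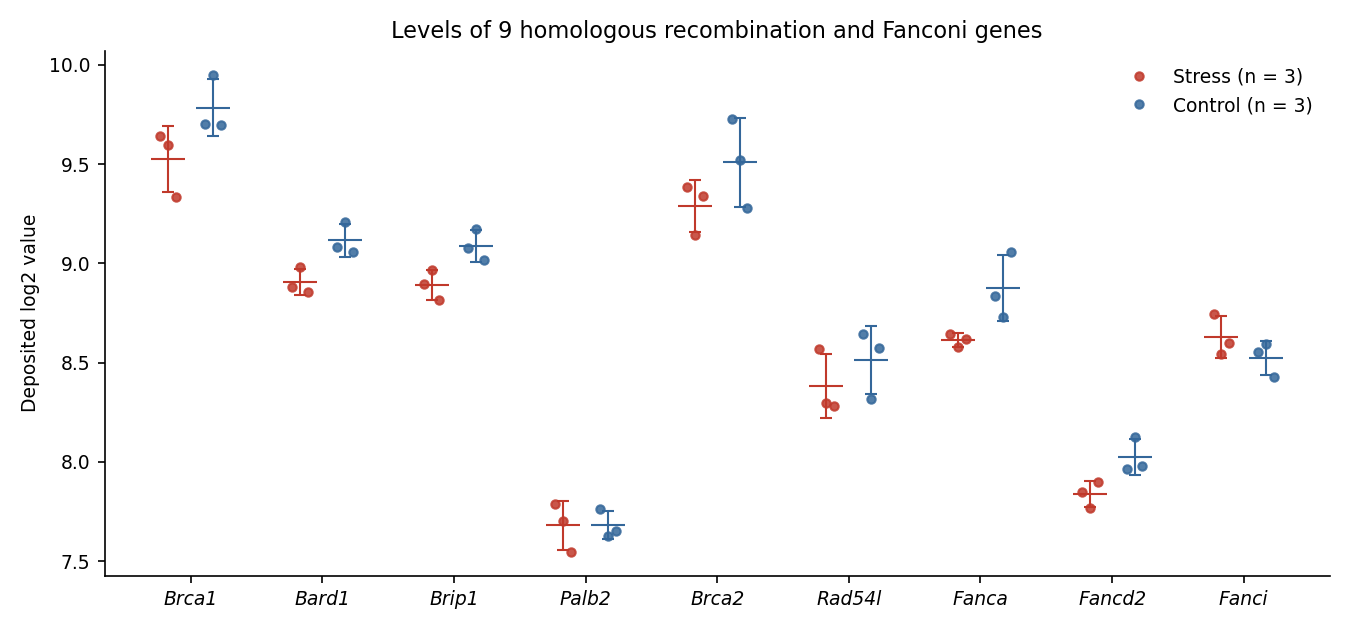
Deposited log2 value of each of the 9 genes in each library (points), with the group mean (horizontal bar) and SD (error bar), stress in red and control in blue, n = 3 each. All stress points lie below all control points for Brca1, Bard1, Brip1, Fanca and Fancd2, and the groups overlap for Palb2, Brca2, Rad54l and Fanci.

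Brca1 lies on the minus strand of chromosome 11 (101488764 to 101551955 on GRCm38, the same assembly as mm10). Its log2 values were 9.64, 9.60 and 9.33 in stress replicates 1 to 3, against 9.70, 9.95 and 9.70 in control replicates 1 to 3. Stress replicate 3 was the lowest library and control replicate 2 the highest, and the closest values of the groups were 9.64 in stress and 9.70 in control. The means were 9.52 ± 0.17 in stress and 9.78 ± 0.14 in control (SD, n = 3 each). The difference of -0.26 ± 0.10 (SE), or 16.5% lower, had a limma adjusted p of 0.267 and a 95% interval of -0.51 to -0.01. Bard1, the ligase partner of Brca1 (chromosome 1, minus strand, 71027498 to 71103146), stood at 8.88, 8.98 and 8.86 in stress and 9.08, 9.21 and 9.06 in control. Bard1 was lower by a similar amount with a smaller spread, at -0.21 ± 0.07 (SE; 13.5% lower, limma adjusted p = 0.192), the smallest p of the 9 genes. Brip1, the helicase partner of Brca1 (chromosome 11, minus strand, 86058138 to 86201193), stood at 8.89, 8.97 and 8.81 in stress and 9.08, 9.17 and 9.02 in control. Its difference was -0.20 ± 0.07 (SE; 12.8% lower, limma adjusted p = 0.215). In Bard1, Brip1 and Brca1 alike, control replicate 2 was the highest library and stress replicate 3 the lowest.

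Brca2 and Palb2, the protein that links it to Brca1, did not show separate groups. Brca2 (chromosome 5, plus strand, 150522630 to 150570329) had log2 values of 9.39, 9.14 and 9.34 in stress and 9.73, 9.52 and 9.28 in control. Control replicate 3 lay below stress replicates 1 and 3. The Brca2 difference of -0.22 ± 0.12 (SE) had a limma adjusted p of 0.385 and an interval of -0.50 to 0.06. Palb2 (chromosome 7, minus strand, 122107262 to 122132985) stood at 7.79, 7.70 and 7.55 in stress and 7.76, 7.63 and 7.65 in control. Its means were 7.68 ± 0.12 in stress and 7.68 ± 0.07 in control (SD, n = 3 each), and the interval of the difference, -0.19 to 0.19, holds changes of that size in either direction (limma adjusted p = 0.997). The Palb2 difference turned above 0 after quantile normalization (0.0348), with a muscle covariate (0.0269), without stress replicate 3 (0.0656) and without control replicate 1 (0.0395). Rad54l (chromosome 4, minus strand, 116094264 to 116123690) stood at 8.57, 8.30 and 8.28 in stress and 8.64, 8.32 and 8.57 in control. The groups overlapped, because control replicate 2 lay among the stress libraries, and the difference was -0.13 ± 0.11 (SE, limma adjusted p = 0.590, interval -0.39 to 0.14).

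Among the Fanconi genes, Fanca and Fancd2 had differences below 0 and Fanci a difference above 0. Fanca (chromosome 8, minus strand, 123268300 to 123318576) stood at 8.64, 8.58 and 8.62 in stress and 8.84, 8.73 and 9.06 in control. The stress libraries lay close together, with an SD of 0.03 against 0.17 in control. The Fanca difference was -0.26 ± 0.09 (SE; 16.5% lower, limma adjusted p = 0.210). Fancd2 (chromosome 6, plus strand, 113531682 to 113597017) stood at 7.85, 7.77 and 7.90 in stress and 7.96, 8.13 and 7.98 in control, a difference of -0.18 ± 0.07 (SE; 12.0% lower, limma adjusted p = 0.255). Fanci (chromosome 7, plus strand, 79391929 to 79450264) stood at 8.75, 8.54 and 8.60 in stress and 8.55, 8.59 and 8.43 in control. Its groups overlapped, and the difference was 0.10 ± 0.08 (SE, limma adjusted p = 0.508, interval -0.08 to 0.29).

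**Figure D2:**
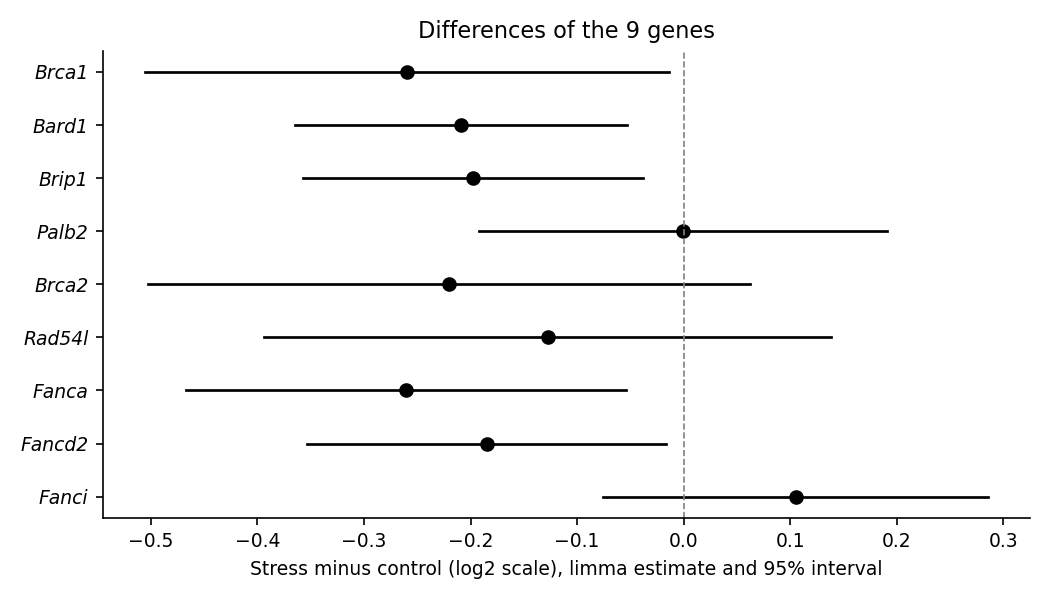
Stress minus control difference on the log2 scale for each of the 9 genes (points, limma estimates) with the 95% interval of each (lines, not adjusted for the number of genes). The intervals of Brca1, Bard1, Brip1, Fanca and Fancd2 lie below 0, and those of Palb2, Brca2, Rad54l and Fanci hold 0.

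The count of members at an unadjusted p under 0.05 moved with single libraries. Leaving out stress replicate 1, stress replicate 2 or stress replicate 3 gave 3 members in each case, where 14.3%, 16.9% and 13.9% of all genes stood in either direction. Leaving out control replicate 2 gave 1 member, Fanca, where 14.6% of all genes stood. Without control replicate 1 there were 5 members, with 16.5% of all genes, and without control replicate 3 there were 4, with 11.4%. Single libraries also moved the size of some differences. That of Brca1 was -0.164 without stress replicate 3, -0.176 without control replicate 2 and -0.318 without stress replicate 1. That of Brca2 was -0.111 without control replicate 1, -0.147 without stress replicate 2 and -0.334 without control replicate 3. That of Fanca was -0.170 without control replicate 3 and -0.333 without control replicate 2. The Rad54l difference ran from -0.224 without control replicate 2 and -0.221 without stress replicate 1 to -0.0848 without stress replicate 2, -0.0769 without stress replicate 3 and -0.0610 without control replicate 1. The Fanci difference was 0.0471 without stress replicate 1 and 0.0575 without control replicate 3. With any single library left out, the differences ran from -0.247 to -0.162 for Bard1, from -0.236 to -0.155 for Brip1 and from -0.215 to -0.133 for Fancd2. With the mean of the 16 skeletal muscle markers as a covariate, the count of members at an unadjusted p under 0.05 was 1. That member was Brca2, at -0.40 ± 0.12 (SE, limma adjusted p = 0.542). Under that covariate the differences were -0.12 for Brca1, -0.17 for Bard1, -0.15 for Brip1, -0.22 for Fanca and -0.19 for Fancd2. The share of all genes at an unadjusted p under 0.05 was 8.47% in that fit.

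Levels of different members can be compared only per length. The log2 of the length, in kilobases, of the longest coding transcript in GENCODE M21 was subtracted from each log2 value. Lengths ran from 3025 bases for Rad54l to 10724 for Brca2. On that scale Brca1 had the highest level, at a log2 value per kilobase of 6.81 in stress and 7.07 in control. Fancd2 had the lowest, at 5.38 in stress and 5.56 in control. In stress tumours the order of the means was Brca1, Rad54l, Fanca, Fanci, Bard1, Brip1, Brca2, Palb2 and Fancd2. The ranges of neighbours in that order overlapped except between Rad54l and Fanca, Bard1 and Brip1, Brip1 and Brca2, and Palb2 and Fancd2. In control tumours Bard1 stood before Fanci, and the order was otherwise the same. There the ranges of neighbours did not overlap between Bard1 and Fanci, Brca2 and Palb2, and Palb2 and Fancd2. This scale takes the deposited values to follow read numbers and a single transcript per gene.

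The mRNA values of genes whose proteins work as partners were compared within each library, which removes differences in scale between libraries. The log2 ratio of Fancd2 to Fanci was -0.90, -0.77 and -0.70 in stress replicates 1 to 3, against -0.59, -0.47 and -0.45 in control replicates 1 to 3. Each stress library was lower than each control library, and the means differed by -0.29. The exact two-sided permutation test gave p = 0.1, the smallest that 3 against 3 allows, and 0.4 after adjustment over the 4 ratios tested. The ratio of Brca2 to Palb2 was 1.61 ± 0.18 in stress and 1.83 ± 0.18 in control (SD, n = 3 each; exact permutation p = 0.2). The ratio of Brca1 to Bard1 was 0.62 ± 0.14 in stress and 0.67 ± 0.06 in control (SD, n = 3 each; exact permutation p = 0.6), and turned higher in stress without stress replicate 3 (0.0197). The ratio of Brca1 to Brip1 was 0.63 ± 0.11 in stress and 0.69 ± 0.08 in control (SD, n = 3 each; exact permutation p = 0.5). The groups overlapped in the ratios of Brca1 to Bard1 and to Brip1 and of Brca2 to Palb2.

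Of the 9 members 4 start back to back with a coding gene on the other strand. Brca1 and Nbr1, an autophagy receptor gene, start 194 bases apart, and the Brca1 sequence printed above is the stretch between them. Nbr1 stood at 11.88, 11.78 and 11.86 in stress and 11.59, 11.54 and 11.50 in control. In contrast to Brca1, each stress library lay above each control library, by 0.29 ± 0.05 (SE, limma adjusted p = 0.0947). The log2 ratio of Brca1 to Nbr1 was -2.23, -2.18 and -2.53 in stress, against -1.89, -1.59 and -1.80 in control. The groups of this ratio did not overlap, and its difference of -0.55 had an exact permutation p of 0.1, the smallest possible with n = 3 each (0.2 after adjustment over the 4 neighbours).

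Fancd2 and Emc3, a gene for a subunit of a membrane protein insertion complex, start 30 bases apart. The ratio of Fancd2 to Emc3 was -2.01 ± 0.05 in stress and -1.84 ± 0.08 in control (SD, n = 3 each; exact permutation p = 0.1, adjusted 0.2). Emc3 itself differed by -0.02 ± 0.05 (SE, limma adjusted p = 0.912). Palb2 and Dctn5, a dynactin subunit gene, start 56 bases apart, and their ratio was -2.53 ± 0.13 in stress and -2.55 ± 0.01 in control (SD, n = 3 each; exact permutation p = 0.7). Rad54l and Pomgnt1, a glycosyltransferase gene, start 150 bases apart, and their ratio was -1.41 ± 0.09 in stress and -1.37 ± 0.13 in control (SD, n = 3 each; exact permutation p = 0.7). None of the 4 neighbours passed the threshold over all genes. Whether reads were counted by strand is not stated, so reads of overlapping transcripts at these sites cannot be told apart.

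**Figure D3:**
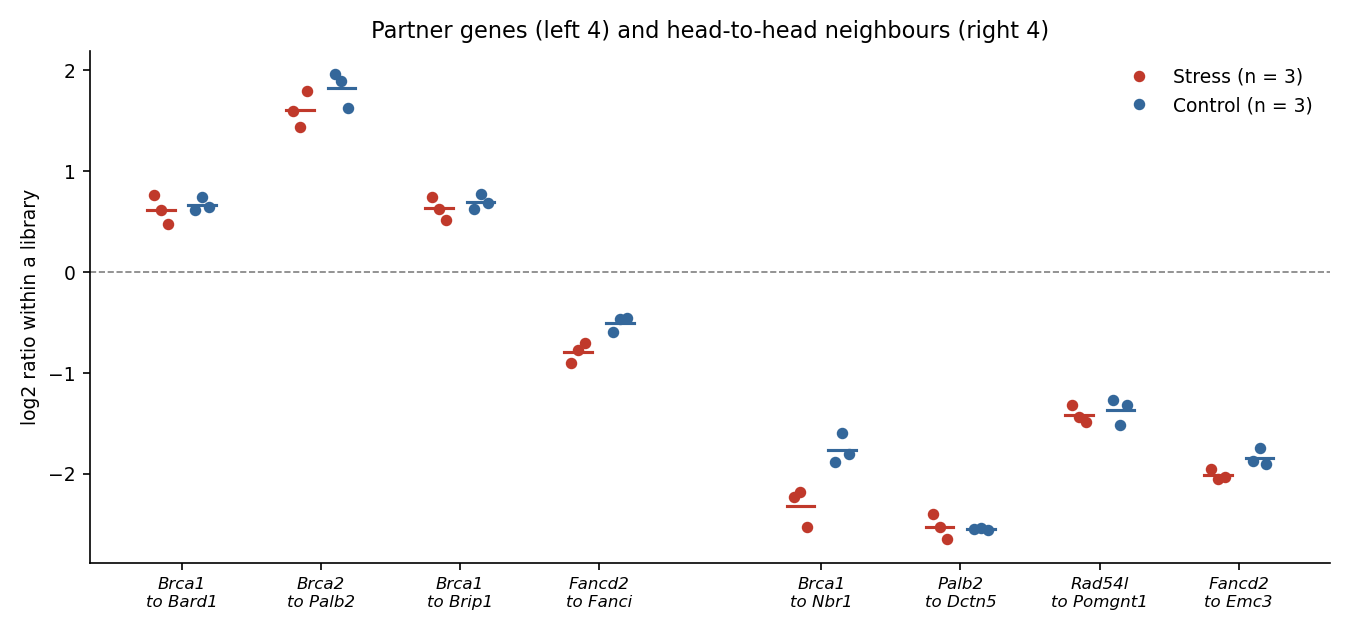
log2 ratio within each library of partner genes (left 4) and of members to the gene that starts back to back with them (right 4), stress in red and control in blue, n = 3 each, with horizontal bars for means. Stress and control points are separate for Fancd2 to Fanci, Brca1 to Nbr1 and Fancd2 to Emc3, and overlap for the other 5 ratios.

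The other genes of homologous recombination were read from lists. All 10 end resection and RPA genes were lower in stress, with a median of -0.17, and none passed the threshold. At an unadjusted p under 0.05 in limma's test there were 5 of the 10, where 9.15% of all genes stood lower. The groups did not overlap for 5 of the 10, all lower, against 12.3% of all genes. With the muscle covariate that median was -0.107. Exo1, an exonuclease of end resection, stood at 8.23, 8.27 and 8.19 in stress and 8.63, 8.67 and 8.58 in control. Its difference of -0.40 ± 0.06 (SE) had a limma adjusted p of 0.0769, and its groups did not overlap. Rpa2, a subunit of the single-strand binding complex, differed by -0.28 ± 0.06 (SE, limma adjusted p = 0.120).

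The genes that dissolve or cut joint molecules were divided, 7 lower and 6 higher, with a median of -0.02. The nuclease subunit Eme1 differed by -0.35 (limma adjusted p = 0.147), and the helicase Fbxo18 stood 0.25 higher (0.133). The 5 genes of the BRCA1-A complex had a median of 0.01, with Abraxas1, its scaffold, 0.15 higher (0.284) and Babam1 at -0.05 (0.672). No gene of either list passed the threshold.

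The rest of the Fanconi pathway did not share the sign of Fanca and Fancd2 throughout. Of 13 other core complex genes 8 were lower and 5 higher, with a median of -0.02, which turned above 0 after quantile normalization (0.0090). Cenps, a histone-fold protein that binds Fancm, differed by -0.24 (limma adjusted p = 0.154), and Fancb, a core subunit, by -0.18 (0.264). Of 10 downstream genes 3 were lower and 7 higher, with a median of 0.04. Usp1, the protease that takes ubiquitin off Fancd2 and Fanci, differed by -0.20 (limma adjusted p = 0.135), while Wdr48, its activating subunit, stood 0.25 higher (0.115). The values of Wdr48 were 10.90, 10.85 and 10.88 in stress and 10.58, 10.70 and 10.59 in control, and those of Usp1 11.09, 11.16 and 11.06 in stress and 11.28, 11.34 and 11.30 in control. Neither gene's groups overlapped, and they lay in opposite directions, but both were named for having the smallest p-values of the list. Of the 10 downstream genes the groups did not overlap for 2 lower and 4 higher, against 12.3% and 12.1% of all genes. No gene of either list passed the threshold.

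The checkpoint genes, which sense and signal damage, were lower in 9 of 15 cases with a median of -0.07. The replication checkpoint proteins Topbp1 (-0.23, limma adjusted p = 0.107) and Clspn (-0.37, 0.171) had the smallest p-values. The other repair pathways had medians close to that of all genes, and no member passed. Non-homologous end joining, which rejoins breaks without a template, had 7 genes lower and 7 higher with a median of -0.0020. Within it the ligase Lig4 differed by -0.33 (0.114), and Trp53bp1, which opposes end resection and Brca1, stood 0.32 higher (0.166). Mismatch repair had a median of -0.02, with Msh6 at -0.26 (0.114) and Pms1 at -0.12 (0.481). Base excision repair had 10 genes lower and 6 higher, with a median of -0.05. At an unadjusted p under 0.05 in limma's test it held 5 genes, all lower, where 9.15% of all genes stood lower. Its smallest p-values were those of Mutyh at -0.24 (0.140) and Ung at -0.37 (0.153). Nucleotide excision repair had a median of -0.0032, with Xpa 0.17 higher (0.288) and Xpc 0.16 higher (0.292). The values in parentheses are limma adjusted p-values.

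**Figure D4:**
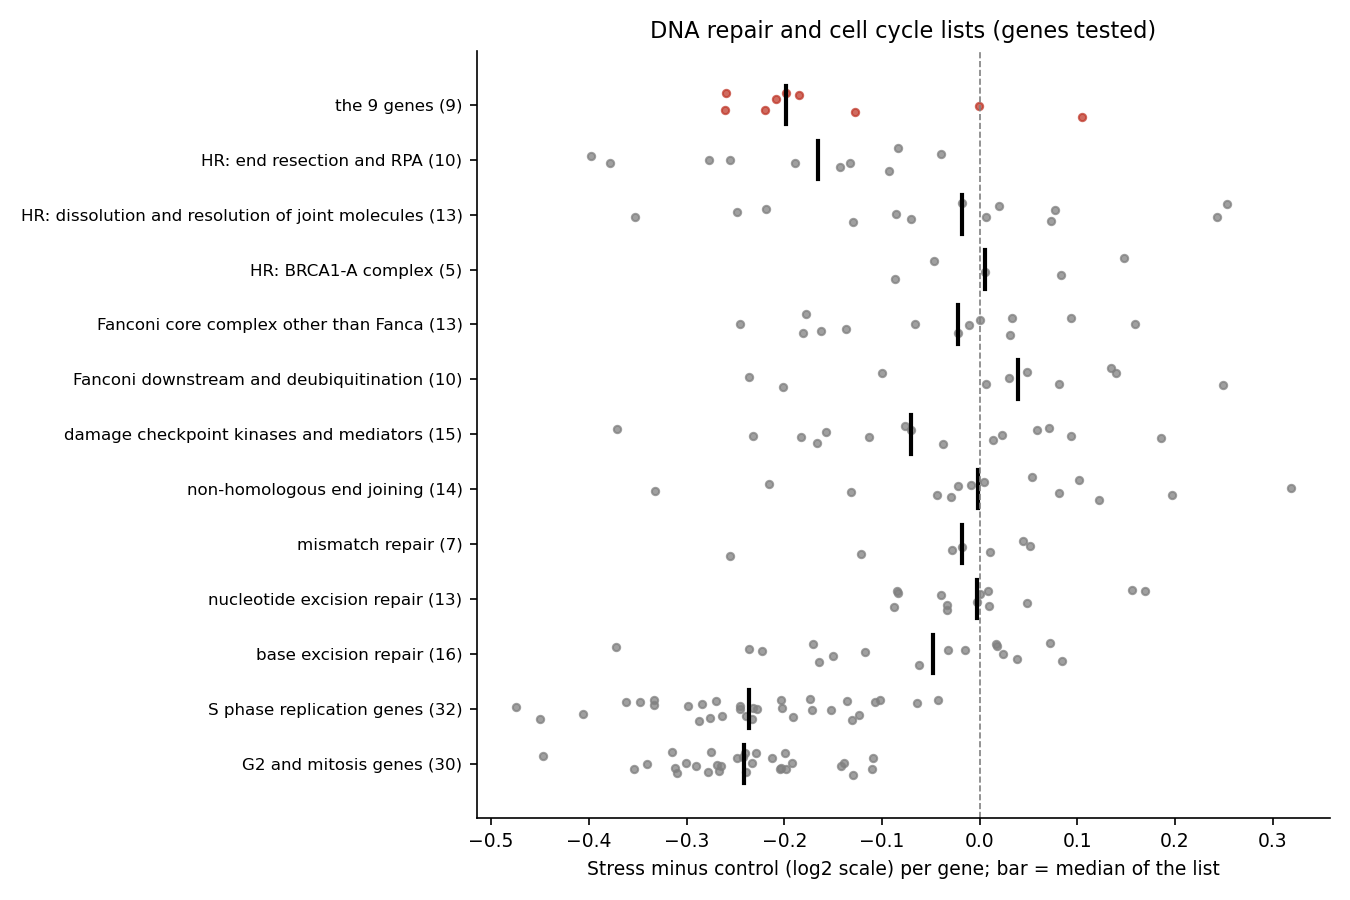
Stress minus control difference on the log2 scale of every tested gene (points) in the 9 genes (red) and in each DNA repair or cell cycle list (grey), with list medians as black bars and the number of genes tested in parentheses. The medians are -0.20 for the 9 genes, -0.17 for resection and RPA genes and -0.24 for both cell cycle lists, and lie between -0.07 and 0.04 for the other lists.

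Genes of dividing cells were lower in the same libraries. All 32 S phase replication genes had a difference below 0, with a median of -0.24, and so did all 30 G2 and mitosis genes, also with a median of -0.24. None passed the threshold. At an unadjusted p under 0.05 in limma's test 24 of the 32 and 23 of the 30 were lower, where 9.15% of all genes were. All stress libraries lay below all control libraries for 29 and 23 of them, against 12.3% of all genes. These lists too were chosen with earlier results of these data known. With the muscle covariate the medians were -0.149 for the S phase genes and -0.171 for the G2 and mitosis genes. The smallest p-values belonged to Rrm2 (-0.45, limma adjusted p = 0.0647) and the primase Prim1 (-0.28, 0.111), and to the mitotic kinase Plk1 (-0.45, 0.0769) and Birc5 (-0.34, 0.0947). The mean of the 32 S phase genes was 9.80, 9.82 and 9.68 in stress replicates 1 to 3 and 9.97, 10.08 and 9.97 in control replicates 1 to 3. The mean of the 9 members was 8.71, 8.62 and 8.59 in stress and 8.82, 8.81 and 8.75 in control. All stress libraries were below all control libraries in both means. The part of cell division in the members' values was not tested.

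**Figure D5:**
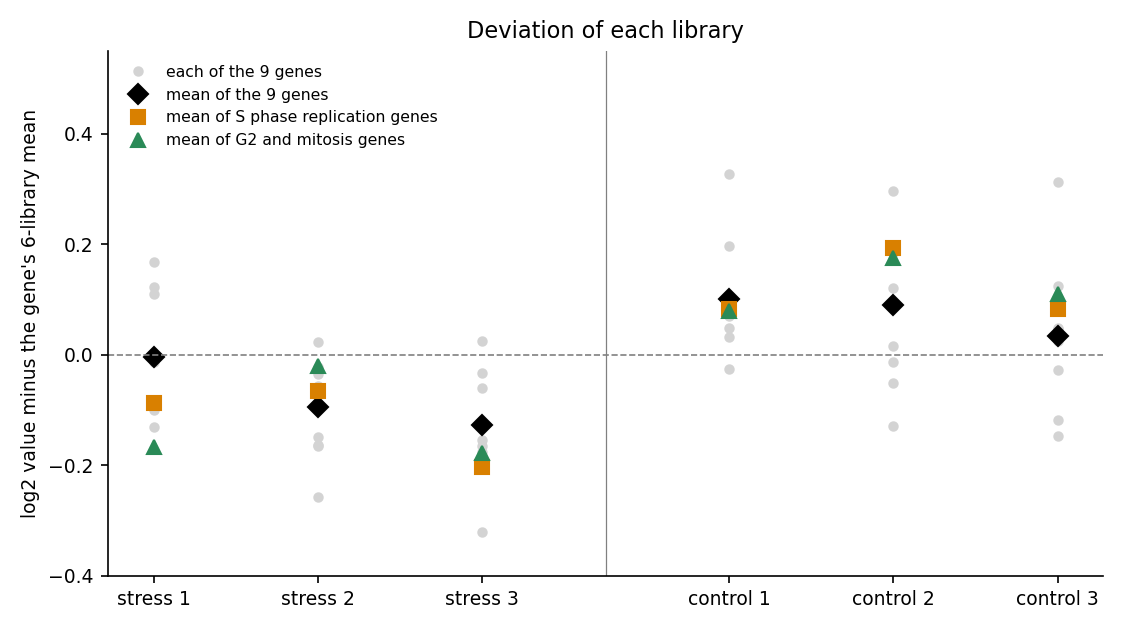
log2 value minus each gene's mean over the 6 libraries, for the 9 genes (grey points), their mean (black diamonds), the mean of 32 S phase replication genes (orange squares) and the mean of 30 G2 and mitosis genes (green triangles), by library. The means of the 9 genes lie between -0.13 and -0.0038 in stress and between 0.03 and 0.10 in control.

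Among themselves the members did not follow a single profile. Stress replicate 3 was the lowest library for 5 members, stress replicate 2 for 3 and control replicate 3 for 1, Fanci. Control replicate 2 was the highest library for 4 members, control replicate 1 for 2, stress replicate 1 for 2 and control replicate 3 for 1. As a measure of likeness, the Euclidean distance between a gene's centred profile over the 6 libraries and the mean centred profile of the members was taken. Among the members themselves this distance ran from 0.159 for Brip1 and 0.184 for Bard1 to 0.326 for Brca2 and 0.333 for Fanci. The non-members closest to the mean profile were Aldh4a1 (distance 0.0301), Gemin5 (0.0454), Rbmxl1 (0.0459), Atp5f1 (0.0485), Plekhh1 (0.0487), Cib1 (0.0504), Slc35g1 (0.0518) and Ranbp6 (0.0519). Their differences ran from -0.16 for Aldh4a1 to -0.12 for Plekhh1, and none passed the threshold. They were picked for their likeness over the same 6 libraries, so this is a description.

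The tissue label was checked against marker genes. The epithelial list, which marks the tumour cells, was present throughout, with Epcam, Cdh1, Krt8 and Krt18 among 11 of 12 markers above the filter on low values and none listed at 0. Its summed normalized level (values as powers of 2) was 41606 to 46416 in stress and 41978 to 46537 in control, and 7 of 11 markers were lower. The summed levels of skeletal muscle, fibroblast and neutrophil markers overlapped between the groups, and those of endothelial markers did not. The median difference was -0.76 for skeletal muscle, -0.59 for fibroblast, -0.31 for endothelial and 0.51 for neutrophil markers. The skeletal muscle markers were lower in 16 of 16 cases, with a summed level of 4355 to 9444 in stress and 7581 to 19303 in control, and the fibroblast markers in 11 of 12, with 72998 to 101125 in stress and 92326 to 195198 in control. Endothelial markers were lower in 9 of 10 cases (8907 to 10278 in stress, 10390 to 11437 in control), and neutrophil markers higher in 9 of 11 (4358 to 10137 in stress, 6022 to 8464 in control). Macrophage markers were lower in 5 of 10 cases, with a median of 0.02. Of 11 tested T and NK cell markers 9 were lower (median -0.09), and of 2 tested adipocyte markers both were. No marker of the lists described here was listed at 0, and none passed the threshold. The median value of a library ran from 8.91 to 8.92 over the 6 libraries. The part of these cells in the members' values was not tested beyond the muscle covariate given above.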

How the data were processed

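The values are normalized log2 values as deposited, in 35453 rows (the table's name speaks of raw counts, but the values are fractional and partly negative). The log base was taken to be 2, since the powers of 2 sum to 1.69e+07 to 1.77e+07 in each library, as read numbers would. Per the submitters' processing notes bcl2fastq, kallisto 0.46.1 and mm10 were used; how kallisto's output became log2 values is not stated, and the depth is unknown. Rows at 0 in all 6 libraries (12658) or with a calendar date for a symbol (26) were left out, and the 14098 genes whose mean value reached 4 were tested. Groups came from the titles. The test was limma 3.58.1 in R 4.3.3 (lmFit, then robust eBayes with a variance trend), two-sided, stress minus control, with no covariate. The Benjamini-Hochberg adjustment ran over all genes tested. The procedure was also run on simulated data, with planted changes larger than the members' differences. That run cannot tell how well changes of the members' size are found. Log2 ratios of partners and neighbours were compared by exact permutation tests, chosen after the values were seen. Members, lists and the rule for named genes were chosen with earlier results of these data known. The rule took all members, the genes of each list past the threshold or else the 2 with the smallest p, and the 8 non-members of most similar profile. Head-to-head neighbours were chosen by position. Shld1 and Shld2 were found under older symbols (1110034G24Rik and Fam35a), and Shld3 was not analysed here. A repair list and a marker list are not reported here. Coordinates came from GENCODE M21. The miRNA table was not used here. Alternatives were 2 other filters, quantile normalization, median centring, eBayes without trend or robust estimation, a replicate block, a muscle marker covariate and leaving out each library.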

Additional observations from a re-analysis of the deposited data

How the results depend on the processing

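No member passed the threshold under any of the 13 alternatives, and the smallest adjusted p of a member over them was 0.166 (Bard1, with a minimum mean of 7). The median difference of the members ran from -0.207 to -0.150. Every member except Palb2 kept its sign under all 13. Over all genes, calls numbered 3 higher and 2 lower as reported, 8 and 8 with a minimum mean of 7, 1 and 1 without variance trend and robust estimation, and 0 and 0 with the replicate block and with the muscle covariate; quantile normalization gave 5 lower. With single libraries left out the calls ran from 0 to 4 higher and from 0 to 2 lower, and members at an unadjusted p under 0.05 from 1 to 5. With the muscle covariate that count was 1. With single libraries left out, members whose groups did not overlap ran from 5 to 6 lower, where 15.6% to 18.6% of all genes were, and from 0 to 1 higher (Fanci, without stress replicate 2, where 18.3% were). Palb2 reversed after quantile normalization (0.0348) and with the muscle covariate (0.0269). With single libraries left out, values on both sides of 0 were found for Palb2 (-0.0558 to 0.0656), Dctn5 (-0.0527 to 0.0176), Emc3 (-0.0545 to 0.00797) and the ratios of Brca1 to Bard1 (-0.123 to 0.0197), Palb2 to Dctn5 (-0.0436 to 0.0841) and Rad54l to Pomgnt1 (-0.124 to 0.0024). The causes were not tested. The S phase gene Rrm2 passed the threshold with a minimum mean of 7 (adjusted p = 0.0444). Same-numbered libraries did not deviate together (correlations of -0.0790, 0.0815 and -0.0183). A pairing with weak effects would look the same, so whether the numbers pair the samples is not known. With the replicate block 4 members had an unadjusted p under 0.05, all lower, where 16.3% of all genes stood in either direction and 8.19% were lower, and the smallest adjusted p of a member was 0.212.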
